A study of Mus musculus with 18 samples.

Results

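The 34 genes described here encode the mouse Wnt ligands and the receptors that bind them at the cell surface. They were chosen by gene name from a table of 43346 genes and comprise 19 ligands, 10 Frizzled receptors, the LRP co-receptors Lrp5 and Lrp6, and the alternative receptors Ror1, Ror2 and Ryk. Of the 19 ligands, 14 are grouped as mainly canonical, and 5 (Wnt4, Wnt5a, Wnt5b, Wnt11 and Wnt16) as mainly non-canonical, although several can act by either route depending on the receptors at hand.

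All samples were MC3T3-E1 subclone 4 cells at passage 9, a pre-osteoblast line that began in C57BL/6 mouse calvaria. The subclone is 1 clonal line, so no result speaks for other clones or animals. Treated cells were given EPZ6438 at 2.5 µM, which inhibits EZH2, the enzyme that methylates lysine 27 of histone H3, and control cells DMSO at 0.25%, and both were kept in osteogenic medium with ascorbic acid and glycerol phosphate until day 3. RNA came from 3 samples per arm. H3K27me3, the silencing mark made by EZH2, and H3K4me3, which marks promoters in use or held ready, were mapped by chromatin immunoprecipitation in 2 samples per mark and arm, read here as 1 merged list of peaks for each mark in each arm. The labels do not say whether EPZ6438 was given in DMSO, so effects of the inhibitor and of a difference in vehicle cannot be told apart.

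Wnt proteins are secreted, lipid-modified glycoproteins. Canonical ligands bring a Frizzled receptor together with LRP5 or LRP6, which stabilises beta-catenin and lets it act with TCF and LEF factors on target genes, whereas non-canonical ligands signal through Frizzled with ROR or RYK receptors to the cytoskeleton and to calcium. In bone the canonical branch favours the osteoblast fate over the adipocyte fate, and in humans loss of LRP5 lowers bone mass.

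Across the set, RNA of 7 genes passed the test as higher in EPZ6438 cells, and no gene passed as lower. The count was 2 without EPZ6438 replicate 1 or 3 or DMSO replicate 2, 3 without EPZ6438 replicate 2, and 4 with no filter on low reads. The 7 were the canonical ligands Wnt6, Wnt7b, Wnt10a and Wnt10b, the non-canonical ligands Wnt4 and Wnt11, and the receptor Fzd5. Of these, Wnt11 met the filter on low reads only through its EPZ6438 libraries. No LRP co-receptor, ROR receptor or Ryk passed the test. Over all genes tested, 3.80% passed as higher and 3.24% as lower. H3K27me3 peaks lay at the ends of 8 of the 34 genes in the EPZ6438 list and of 17 in the DMSO list. Among protein-coding genes the shares were 6.82% with EPZ6438 and 31.1% with DMSO. All 8 genes of the EPZ6438 list, Fzd3 and 7 ligands, had a peak in both lists. Of the 8 genes, 6 had almost no RNA in either arm.

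The promoters of 6 ligands are printed because the peak lists set them apart most plainly; they were chosen after their peaks were seen. Those of Wnt6 and Wnt10b, both transcribed, lay wholly or in part under H3K4me3 and under no H3K27me3 peak. Those of Wnt3a and Wnt7a, with no read in any library, lay wholly under H3K27me3 in both arms. Those of Wnt8b and Wnt9b lay wholly under H3K27me3 in the DMSO list and not at all in the EPZ6438 list. Each sequence runs 5′ to 3′ on the gene's strand from 250 bases before to 50 bases after the start annotated by RefSeq on GRCm38.p6 (mm10), and capitals mark CpG, the dinucleotide CG, which reads the same on both strands. The windows are Wnt6 chr1:74771642-74771941 (plus strand), Wnt10b chr15:98778101-98778400 (minus strand), Wnt3a chr11:59290702-59291001 (minus strand), Wnt7a chr6:91411304-91411603 (minus strand), Wnt8b chr19:44493222-44493521 (plus strand) and Wnt9b chr11:103749772-103750071 (minus strand).
Wnt6: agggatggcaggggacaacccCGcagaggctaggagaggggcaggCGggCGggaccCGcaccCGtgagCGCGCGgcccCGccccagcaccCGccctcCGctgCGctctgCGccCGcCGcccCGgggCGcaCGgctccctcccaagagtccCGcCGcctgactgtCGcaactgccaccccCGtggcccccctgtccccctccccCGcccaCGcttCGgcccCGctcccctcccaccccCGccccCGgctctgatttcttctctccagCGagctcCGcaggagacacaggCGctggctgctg
Wnt10b: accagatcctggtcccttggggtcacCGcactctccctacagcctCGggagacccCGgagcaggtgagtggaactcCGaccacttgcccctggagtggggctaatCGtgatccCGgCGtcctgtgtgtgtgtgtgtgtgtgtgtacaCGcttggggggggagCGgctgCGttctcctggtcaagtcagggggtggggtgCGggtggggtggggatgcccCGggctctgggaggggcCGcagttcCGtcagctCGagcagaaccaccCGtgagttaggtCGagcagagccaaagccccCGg
Wnt3a: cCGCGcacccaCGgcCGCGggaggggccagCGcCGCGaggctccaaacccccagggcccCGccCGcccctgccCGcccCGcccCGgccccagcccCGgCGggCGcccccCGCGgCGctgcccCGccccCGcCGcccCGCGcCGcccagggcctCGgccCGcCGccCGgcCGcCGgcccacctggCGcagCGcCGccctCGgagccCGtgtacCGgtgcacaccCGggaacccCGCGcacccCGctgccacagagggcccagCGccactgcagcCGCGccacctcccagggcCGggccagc
Wnt7a: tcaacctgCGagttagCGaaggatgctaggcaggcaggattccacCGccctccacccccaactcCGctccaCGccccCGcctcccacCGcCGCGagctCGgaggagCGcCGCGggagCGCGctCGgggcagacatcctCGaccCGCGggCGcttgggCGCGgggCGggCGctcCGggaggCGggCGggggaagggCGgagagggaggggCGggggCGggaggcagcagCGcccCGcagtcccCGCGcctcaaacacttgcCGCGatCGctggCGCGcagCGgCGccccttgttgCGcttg
Wnt8b: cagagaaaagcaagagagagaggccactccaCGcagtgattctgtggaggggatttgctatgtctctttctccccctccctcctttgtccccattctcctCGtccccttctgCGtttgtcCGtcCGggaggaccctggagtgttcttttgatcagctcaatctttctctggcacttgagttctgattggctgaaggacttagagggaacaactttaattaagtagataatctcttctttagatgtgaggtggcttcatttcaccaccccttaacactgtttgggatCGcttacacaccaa
Wnt9b: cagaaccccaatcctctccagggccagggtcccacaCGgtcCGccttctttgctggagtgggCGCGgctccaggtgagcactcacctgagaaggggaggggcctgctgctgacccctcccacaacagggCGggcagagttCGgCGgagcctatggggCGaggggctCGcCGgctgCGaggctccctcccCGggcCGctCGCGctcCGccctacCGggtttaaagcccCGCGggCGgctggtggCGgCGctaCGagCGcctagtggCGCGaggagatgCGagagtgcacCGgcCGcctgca

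CpG content differed widely among them, from 6 CpG in the 300 bases of Wnt8b to 45 in Wnt3a, with 18 in Wnt10b, 29 in Wnt9b, 31 in Wnt6 and 42 in Wnt7a. RefSeq promoters were at hand for 24 of the 34 genes, and in 23 the RefSeq start lay within 500 bp of the gene start of the expression table. Those 23 held a median of 32 CpG (range 6 to 58), against a median of 13 over 21263 promoters of protein-coding genes. At least 10 CpG were found in 22 of the 23, and in 56.8% of protein-coding promoters and 43.5% of all 32851 promoters. The bases of these comparisons differ. For each member only the promoter nearest the gene start was taken, whereas the wider sets held every RefSeq promoter, including alternative ones. Alternative promoters left out were those of Wnt5b (7 and 4 CpG) and Wnt11 (23 CpG). Members with an H3K27me3 peak in the DMSO list had a median of 29 CpG (n = 11) and those without a median of 35 (n = 12), so a CpG-rich promoter was common to both kinds.

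Expression is given in RPKM, read counts scaled to a gene length of 1000 bases and to 1000000 reads in genes. The 6 libraries held 18807156 to 25365513 reads in genes, and nothing says that replicates were separate cultures, so p-values here reflect sample-to-sample spread that may be technical. All 10 osteoblast markers examined were transcribed in both arms. Of these, 7 rose with EPZ6438, among them Sp7 (102 ± 3.25 RPKM in EPZ6438 cells and 54.1 ± 1.62 in DMSO cells, SD, n = 3 each) and Ibsp, while Spp1 fell. Over all genes tested 3.80% rose and 3.24% fell. Adipocyte markers summed to 0.161 to 0.268 RPKM in EPZ6438 libraries and 0.345 to 0.616 in DMSO libraries, and endothelial markers to at most 0.121 in any library, with Cdh5 and Kdr at 0 throughout. Among 6 chondrocyte markers Col2a1 rose and Acan had no read. Col9a1 also passed, but it met the read filter only through its EPZ6438 libraries (23, 31 and 16 reads with EPZ6438 and 0, 0 and 2 with DMSO). Sox9 (5.07 RPKM with EPZ6438 and 5.72 with DMSO) and Comp (0.558 RPKM with EPZ6438 and 0.604 with DMSO) did not pass. Matn1 had too few reads to be tested. The 6 together summed to 83.7 to 113 RPKM with EPZ6438 and 15.3 to 26.2 with DMSO, mostly Col2a1. The part of these cartilage genes in the Wnt results was not tested. Smooth muscle markers summed to 1625 to 1649 RPKM in EPZ6438 libraries and 2157 to 2296 in DMSO libraries, mostly Acta2, which fell. Of the 4 smooth muscle markers tested 1 fell, 1 rose and 2 did not pass. The 1 that rose was Des, at 1.56 RPKM with EPZ6438 and 0.811 with DMSO (limma adjusted p = 0.0440). Calls of marker genes were not followed with libraries left out. Blood cell markers summed to 1.26 to 1.82 RPKM with EPZ6438 and 0.975 to 1.27 with DMSO, with Ptprc at or near 0. Cd68 (1.20 ± 0.236 RPKM with EPZ6438 and 1.00 ± 0.15 with DMSO) and Csf1r (0.238 ± 0.0916 RPKM with EPZ6438 and 0.130 ± 0.000907 with DMSO, SD, n = 3 each) made up most of that sum, and neither passed. Ezh2, the enzyme inhibited, was at 15.4, 14.1 and 15.1 RPKM with EPZ6438 and at 16.2, 14.3 and 12.6 RPKM with DMSO (log2 change 0.05, limma adjusted p = 0.839), and neither Eed nor Suz12, its partners, passed (log2 changes -0.14 and -0.06).

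Genes were tested with limma on log2(RPKM + 0.1) where at least 3 libraries held 10 or more reads, and adjusted p-values run over all 14213 genes that met this. A call is an adjusted p under 0.05, and changes are log2 differences, EPZ6438 minus DMSO, which understate the change of genes near 0. Of the 34 genes 22 met the filter, and of these 7 rose, 0 fell and 15 did not pass. Voom on read counts recovered from the RPKM, an alternative model, also called 7 higher and 0 lower, and at an unadjusted limma p under 0.05 there were 9 higher and 1 lower. Over all genes tested 7.04% were called, 3.80% higher and 3.24% lower. The median log2 change was 0.38 over the 22 and -0.03 over all genes tested. The 3 values of each arm did not overlap for 11 of the 22 genes, 8 higher and 3 lower in EPZ6438 cells, against 26.7% of all genes tested. Wnt11 met the filter only through its EPZ6438 libraries, so that these counts are a description of the genes that could be tested.

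Ligand RNA in these cells came mostly from 3 canonical genes. Wnt6, Wnt10a and Wnt10b together made up 81.6% to 83.7% of the summed RPKM of the 19 ligands in EPZ6438 libraries and 77.5% to 81.8% in DMSO libraries. These 3 ligands are known for holding mesenchymal precursors back from the adipocyte fate and, Wnt10b above all, for promoting bone formation in mice. The 19 ligands summed to 42.9, 47.9 and 45.1 RPKM with EPZ6438 and to 25.6, 25.9 and 29.6 RPKM with DMSO, so that the lowest treated library lay well above the highest control. The canonical share of that sum was 86.7% ± 1.07 in EPZ6438 cells and 86.7% ± 2.03 in DMSO cells (SD, n = 3 each), the canonical and non-canonical sums being 39.3 ± 1.71 and 6.05 ± 0.804 RPKM with EPZ6438, against 23.4 ± 2.11 and 3.57 ± 0.532 RPKM with DMSO. In whole-culture RNA, more cells that express a ligand and more RNA per cell cannot be told apart.

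**Figure D1:**
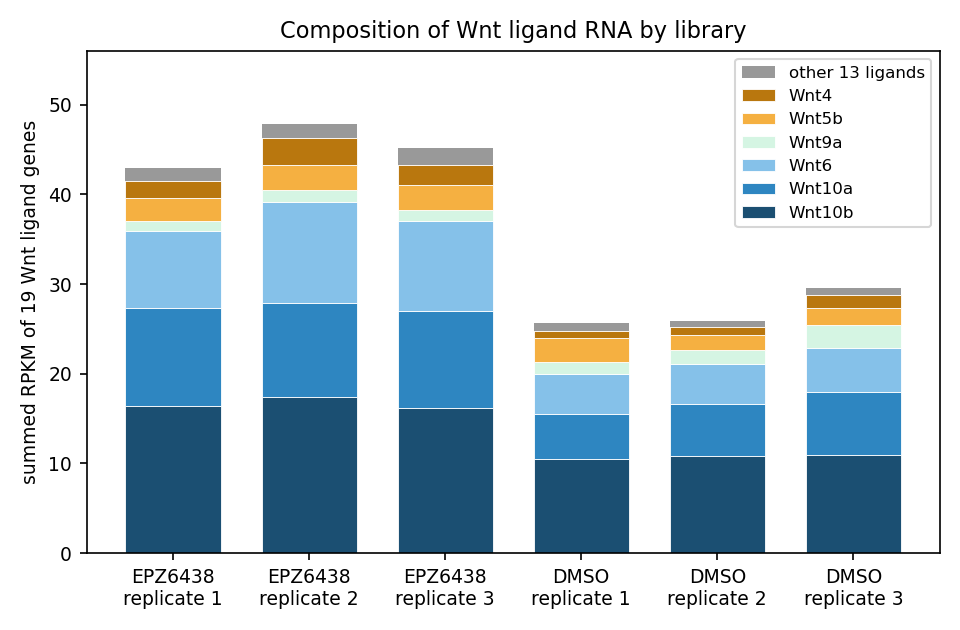
Summed RPKM of the 19 Wnt ligand genes in each library (vertical axis), with EPZ6438 libraries on the left, DMSO libraries on the right, and each bar divided by ligand. The EPZ6438 bars reach 42.9 to 47.9 RPKM and the DMSO bars 25.6 to 29.6 RPKM, with Wnt10b, Wnt10a and Wnt6 the widest bands in every library.

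Wnt10b was the most abundant ligand. It was at 16.4, 17.4 and 16.2 RPKM in EPZ6438 libraries and at 10.5, 10.8 and 10.9 RPKM in DMSO libraries. Within each arm the libraries lay close together, and the arms were far apart (log2 change 0.63, SE 0.08, limma adjusted p = 0.00468). Wnt6 was at 8.62, 11.2 and 9.97 RPKM with EPZ6438 and at 4.49, 4.45 and 4.98 RPKM with DMSO. Every treated library thus held more Wnt6 than any control, with a log2 change of 1.08 (SE 0.12, adjusted p = 0.00361). Wnt10a, whose gene lies 6193 bp from that of Wnt6 on chromosome 1 with no protein-coding gene between them, was at 10.8, 10.5 and 10.8 RPKM with EPZ6438 and at 4.95, 5.87 and 7.03 RPKM with DMSO. The spread was wider among the controls, and the arms did not overlap (log2 change 0.85, SE 0.14, adjusted p = 0.0128). Wnt6 and Wnt10b kept their call when any 1 library was left out, whereas Wnt10a did not without EPZ6438 replicate 1, 2 or 3 or without DMSO replicate 2 (adjusted p from 0.0556 to 0.0729). Wnt6 overlaps the antisense gene Gm29539, and since the strand setting of the counting is not given in the sources used here, reads of that gene cannot be told apart from its own.

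Wnt7b, which promotes osteoblast differentiation in mice, was far less abundant than these 3. It was at 0.495, 0.497 and 0.634 RPKM in EPZ6438 libraries and at 0.229, 0.133 and 0.179 RPKM in DMSO libraries. The arms were well apart although the counts were small, 155 reads with EPZ6438 and 52 with DMSO, a ratio of 3.04 after scaling to library totals (95% interval 2.20 to 4.24, counting error only). The log2 change was 1.20 (SE 0.21, adjusted p = 0.0168), and the call was lost without EPZ6438 replicate 1, 2 or 3 or without DMSO replicate 2 (adjusted p from 0.0593 to 0.0854). Wnt7b overlaps the long non-coding gene AU022754. Wnt9a, a ligand of joint development, was the canonical ligand tested that did not pass: it was at 1.14, 1.44 and 1.20 RPKM with EPZ6438 and at 1.29, 1.51 and 2.52 RPKM with DMSO. The arms overlapped and DMSO replicate 3 stood above the other 5 libraries (log2 change -0.41, SE 0.25, adjusted p = 0.415).

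Of the 5 non-canonical ligands, Wnt4 and Wnt11 rose. Wnt4, known for its part in kidney and gonad development and, in mice, for limiting bone loss, was at 1.98, 3.04 and 2.30 RPKM in EPZ6438 libraries and at 0.773, 0.955 and 1.39 RPKM in DMSO libraries. The arms did not overlap, but the libraries within each arm differed (log2 change 1.17, SE 0.25, adjusted p = 0.0351), and the call was lost when EPZ6438 replicate 1, 2 or 3 or DMSO replicate 1 or 2 was left out (adjusted p from 0.0615 to 0.136). Wnt11, a ligand of cell movement in gastrulation and of kidney branching, was at 0.222, 0.399 and 0.467 RPKM with EPZ6438 and at 0.117, 0.0248 and 0.0542 RPKM with DMSO. These levels rest on 17, 35 and 34 reads with EPZ6438 and on 8, 2 and 5 reads with DMSO, a ratio of 5.84 in summed reads scaled to library totals with a wide counting interval of 3.35 to 10.9. The fitted log2 change was 1.48 (SE 0.31, adjusted p = 0.0330); it missed the threshold without DMSO replicate 2 or 3 (adjusted p = 0.124 and 0.0613), and with EPZ6438 replicate 1, 2 or 3 left out the gene no longer met the read filter. Wnt11 overlaps the processed pseudogene Gm8398.

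Wnt5b was at 2.51, 2.70 and 2.80 RPKM with EPZ6438 and at 2.66, 1.63 and 1.92 RPKM with DMSO. DMSO replicate 1 lay within the treated range, and the change did not pass (log2 change 0.38, 95% interval -0.07 to 0.83, adjusted p = 0.321). Wnt5a, a ligand of ROR2, was at 0.492, 0.662 and 0.575 RPKM with EPZ6438 and at 0.415, 0.362 and 0.413 RPKM with DMSO. Its arms did not overlap, yet over all genes tested it missed the threshold (log2 change 0.44, 95% interval 0.03 to 0.85, adjusted p = 0.209), which does not show that its RNA was the same in both arms. Wnt5b overlaps Fbxl14 and Wnt5a overlaps Gm2670.

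**Figure D2:**
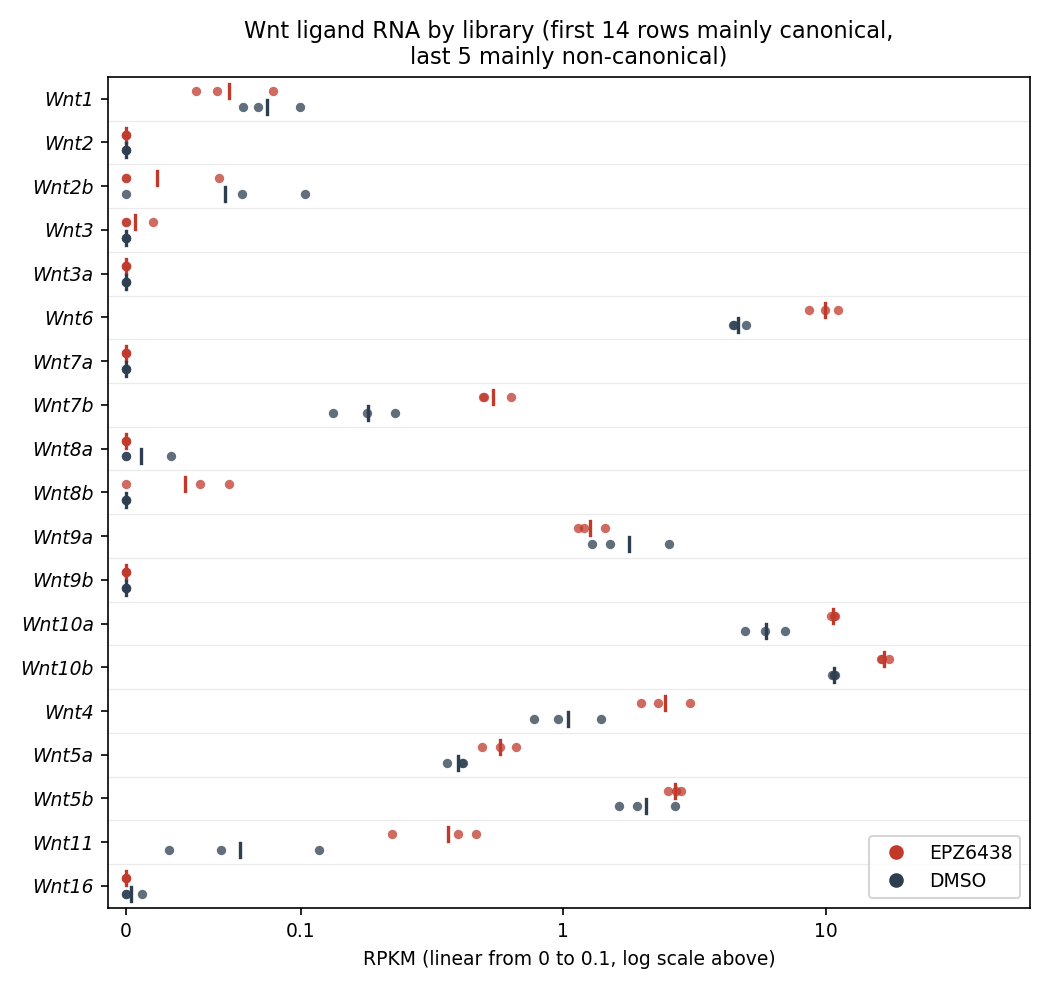
RPKM of each Wnt ligand gene by library (horizontal axis, linear from 0 to 0.1 and logarithmic above), with the EPZ6438 points above the DMSO points in each row and a vertical tick at the mean of 3 libraries. Wnt6, Wnt10a and Wnt10b stand apart at 4.45 to 17.4 RPKM, 6 ligands lie at intermediate levels with EPZ6438, and the other 10 stay at or under 0.104 RPKM in every library. Of the 6, Wnt11 lies at 0.0248 to 0.117 RPKM with DMSO, reaching into the range of the other 10.

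The remaining 10 ligands were silent or nearly so in both arms, together with Fzd3 and Fzd10. None of these 12 genes exceeded 7 reads or 0.104 RPKM in any library. No read was counted in any of the 6 libraries for Wnt2, Wnt3a, Wnt7a, Wnt9b, Fzd3 and Fzd10, which allows up to 3 reads per library, or 0.0262 to 0.0707 RPKM depending on gene and library. Wnt1, a ligand whose loss causes brittle bone in humans, had 2 to 4 reads in EPZ6438 libraries and 3 to 6 in DMSO libraries. Wnt2b had 4, 0 and 0 reads with EPZ6438 and 7, 0 and 6 with DMSO. Wnt3, Wnt8a and Wnt16 had a single read in 1 of the 6 libraries each. Wnt8b, a ligand of the embryonic forebrain, had 3, 0 and 4 reads with EPZ6438 and none with DMSO, too few to be tested. At this depth no change in these 12 genes could be tested.

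The Frizzled receptors together were close in sum, at 52.6, 55.7 and 54.5 RPKM with EPZ6438 and at 50.7, 55.9 and 59.8 RPKM with DMSO. Of the 10 genes 8 were tested, 1 rose and 7 did not pass, with a median log2 change of 0.04. The gene that rose was Fzd5, a receptor known from eye and placental development. It was at 6.95, 6.39 and 7.28 RPKM in EPZ6438 libraries and at 4.03, 4.31 and 4.21 RPKM in DMSO libraries. The arms were far apart relative to their spread (log2 change 0.70, SE 0.10, adjusted p = 0.00922), and the adjusted p was 0.0528 without EPZ6438 replicate 1, 0.0680 without EPZ6438 replicate 3 and 0.0528 without DMSO replicate 2. Fzd5 overlaps RP24-388P13.2, a gene with no established product.

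Fzd7 was the most abundant Frizzled gene, with 37.4% ± 0.955 of the family's RPKM in EPZ6438 cells and 41.4% ± 2.54 in DMSO cells (SD, n = 3 each). It was at 20.1, 21.0 and 19.8 RPKM with EPZ6438 and at 22.4, 22.7 and 23.5 RPKM with DMSO. Every treated library was below every control, but the difference was small and did not pass (log2 change -0.17, SE 0.07, adjusted p = 0.235). Fzd2 came next, at 9.32, 12.2 and 10.5 RPKM with EPZ6438 and at 10.1, 12.5 and 15.8 RPKM with DMSO. Its arms overlapped (log2 change -0.25, 95% interval -0.67 to 0.18). Fzd1 was at 5.89, 5.19 and 6.18 RPKM with EPZ6438 and at 6.15, 6.59 and 6.70 RPKM with DMSO, and also overlapped (log2 change -0.17, 95% interval -0.43 to 0.08). Fzd8, at 4.54, 4.95 and 5.33 RPKM with EPZ6438 and 3.21, 4.17 and 4.55 RPKM with DMSO, overlapped only in EPZ6438 replicate 1 and DMSO replicate 3 and did not pass (log2 change 0.32, 95% interval -0.04 to 0.68).

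Fzd6, which orients hair follicles in mice, was at 4.00, 3.15 and 3.43 RPKM with EPZ6438 and at 3.18, 3.00 and 2.74 RPKM with DMSO (log2 change 0.23, 95% interval -0.08 to 0.55). Fzd4, which also binds the ligand Norrin, was at 1.22, 1.54 and 1.04 RPKM with EPZ6438 and at 1.34, 1.68 and 1.22 RPKM with DMSO (log2 change -0.15, 95% interval -0.61 to 0.31). Both overlapped between arms. Fzd9, a receptor needed for full bone formation in mice, averaged 0.936 ± 0.316 RPKM with EPZ6438 and 0.751 ± 0.410 RPKM with DMSO (SD, n = 3 each), with 1 control library at 0.278 RPKM; its log2 change of 0.39 had an interval from -0.67 to 1.45 and turned to -0.12 without that library, DMSO replicate 1.

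The LRP co-receptors were abundant, and neither passed with limma, with voom or at an unadjusted p under 0.05. Lrp5 was at 8.71, 10.9 and 9.49 RPKM in EPZ6438 libraries and at 4.79, 7.10 and 9.06 RPKM in DMSO libraries. The controls were spread widely and their highest library reached into the treated range (log2 change 0.51, 95% interval -0.02 to 1.04, adjusted p = 0.258). Lrp6 was at 21.8, 18.1 and 21.1 RPKM with EPZ6438 and at 25.9, 25.7 and 20.9 RPKM with DMSO, again overlapping (log2 change -0.25, 95% interval -0.52 to 0.03, adjusted p = 0.304).

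Among the alternative receptors, Ror2, the WNT5A receptor of skeletal development, was at 12.2, 17.4 and 15.2 RPKM in EPZ6438 libraries and at 8.07, 10.4 and 13.2 RPKM in DMSO libraries. DMSO replicate 3 reached into the treated range, and the change did not pass (log2 change 0.51, 95% interval 0.03 to 0.99, adjusted p = 0.210). Ror1 was at 4.49, 4.00 and 4.32 RPKM with EPZ6438 and at 5.14, 4.84 and 4.69 RPKM with DMSO. Its arms did not overlap, but the difference was small (log2 change -0.19, 95% interval -0.44 to 0.06). Ryk, the gene of the set with the highest RPKM in every library, was at 31.4, 29.9 and 32.2 RPKM with EPZ6438 and at 35.2, 32.4 and 34.4 RPKM with DMSO, likewise apart by little (log2 change -0.12, 95% interval -0.30 to 0.05). None of the 3 passed with limma or with voom, and at an unadjusted limma p under 0.05 there was 1, Ror2. For these genes and the Frizzled genes that did not pass, the intervals give the sizes of change still compatible with the data; a missed threshold does not show equal levels.

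**Figure D3:**
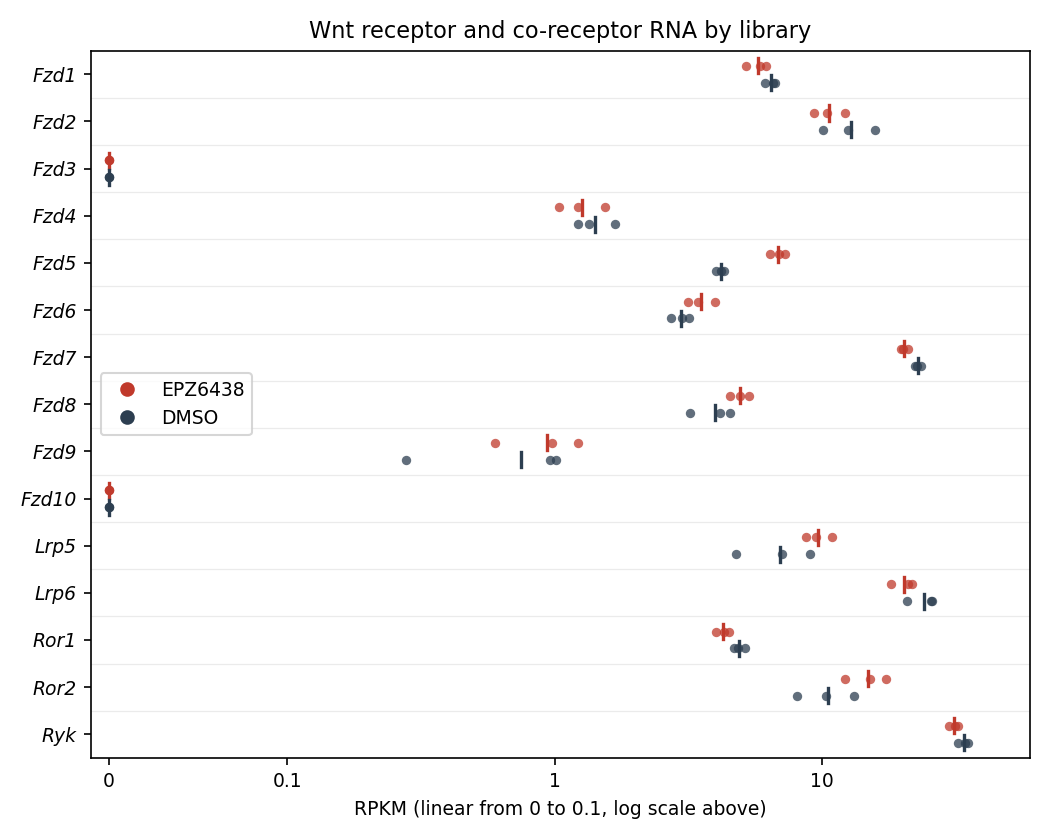
RPKM of each Frizzled, LRP, ROR and RYK gene by library (horizontal axis, linear from 0 to 0.1 and logarithmic above), with the EPZ6438 points above the DMSO points in each row and a vertical tick at the mean of 3 libraries. Fzd5 shows the clearest separation of the arms, while Fzd3 and Fzd10 lie at 0 in all libraries.

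**Figure D4:**
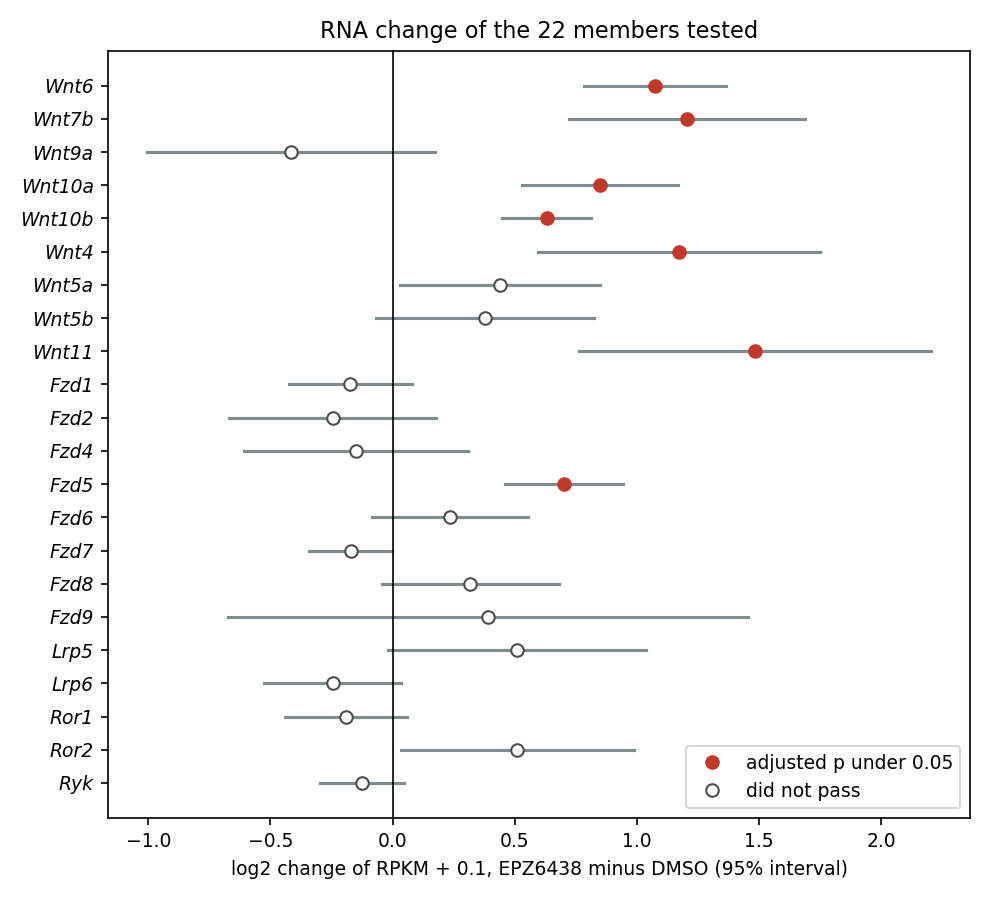
Log2 change of RPKM + 0.1, EPZ6438 minus DMSO, for the 22 genes tested, with 95% intervals as lines; filled points passed at an adjusted p under 0.05 and open points did not. The 6 ligands and 1 receptor that passed lie between 0.63 and 1.48, and every receptor other than Fzd5 has an open point.

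The rest of the pathway was read from the same fit, in lists chosen from textbook roles with earlier results of these data known. Counts in these lists stand beside 3.80% higher and 3.24% lower over all genes tested. Lipidation and secretion genes (9 tested) held 1 that rose, Notum, a secreted enzyme that strips the lipid from Wnt proteins (2.82 ± 0.375 RPKM with EPZ6438 and 1.13 ± 0.304 with DMSO, SD, n = 3 each; adjusted p = 0.0159). Its call was lost when EPZ6438 replicate 1, 2 or 3 or DMSO replicate 2 was left out (adjusted p from 0.0532 to 0.0712). Porcn, which adds that lipid, averaged 6.83 RPKM with EPZ6438 and 6.74 with DMSO, and Wls, which escorts Wnt proteins out of the cell, 73.4 RPKM with EPZ6438 and 95.7 with DMSO, and neither passed. Of 16 cytoplasmic transducers 0 passed, Ctnnb1, which encodes beta-catenin, being at 264 ± 6.80 RPKM with EPZ6438 and 235 ± 7.51 with DMSO (adjusted p = 0.229). Voom called 1 of the 16, lower, and at an unadjusted limma p under 0.05 there were 1 higher and 2 lower.

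Of 12 nuclear factors tested 2 rose, Tcf7 and Lef1, both of them DNA-binding partners of beta-catenin. Tcf7l1 and Tcf7l2, partners of the same kind, leaned lower with EPZ6438 and did not pass. Tcf7l1 averaged 18.2 RPKM with EPZ6438 and 21.7 with DMSO (log2 change -0.24). Tcf7l2 averaged 3.32 RPKM with EPZ6438 and 4.25 with DMSO (log2 change -0.35). Tcf7 was at 55.5, 53.3 and 57.1 RPKM with EPZ6438 and at 15.4, 14.8 and 14.8 RPKM with DMSO (log2 change 1.87, adjusted p = 8.15e-05). Lef1 was far lower, at 0.785, 0.914 and 0.860 RPKM with EPZ6438 and 0.393, 0.364 and 0.524 RPKM with DMSO (log2 change 0.86, adjusted p = 0.0342). Lef1 missed the threshold when any 1 library other than DMSO replicate 3 was left out (adjusted p from 0.0682 to 0.137). Of 6 feedback targets tested 3 rose, namely Tnfrsf19, Ccnd1, which encodes cyclin D1, and Notum, which stands in both lists. Ccnd1 missed the threshold without EPZ6438 replicate 1 or 3 or without DMSO replicate 2 (adjusted p from 0.0549 to 0.0779).

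Antagonists rose and fell. Of 17 listed names 16 were found and 8 were tested, of which 4 rose and 3 fell; Frzb, among the 4, met the read filter only through its EPZ6438 libraries (15, 53 and 33 reads with EPZ6438 and 0, 0 and 1 with DMSO). Wif1, which binds Wnt proteins outside the cell, was at 16.9, 14.5 and 14.9 RPKM with EPZ6438 and at 2.41, 2.19 and 2.35 RPKM with DMSO. Apcdd1, a membrane-bound inhibitor, was at 7.99, 7.18 and 6.51 RPKM with EPZ6438 and at 1.61, 1.13 and 1.13 RPKM with DMSO. Dkk3, a member of the Dickkopf family, went the other way, at 55.5, 53.4 and 49.6 RPKM with EPZ6438 and at 81.8, 84.6 and 80.3 RPKM with DMSO (log2 change -0.64, adjusted p = 0.00355). Of the R-spondins and their partners, which control how long Frizzled receptors stay at the surface, 5 of 9 were tested. Rnf43, a ubiquitin ligase for Frizzled, rose (log2 change 1.40, adjusted p = 0.00193), whereas the R-spondins Rspo2 and Rspo3, which counter that ligase, fell (log2 changes -1.23 and -0.75). Rspo3 missed the threshold when EPZ6438 replicate 1, 2 or 3 or DMSO replicate 2 was left out (adjusted p from 0.0773 to 0.117). Of 11 planar polarity genes tested Prickle1 rose, at 4.85 ± 0.464 RPKM with EPZ6438 and 2.07 ± 0.285 with DMSO (SD, n = 3 each; adjusted p = 0.00436), and the other 10 did not pass.

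Chromatin was read from the merged peak lists, which give starts and ends but no height, so that peak results have no replicate error, no test and a depth that is unknown. The H3K27me3 lists held 20764 peaks over 11.6 Mb with EPZ6438 and 143399 peaks over 89.4 Mb with DMSO, and the H3K4me3 lists 16216 peaks over 8.22 Mb with EPZ6438 and 40113 over 10.4 Mb with DMSO. How far sequencing depth or peak calling set these totals was not tested. A gene was counted as bearing a mark where at least 1 base of a peak fell within 2.5 kb of either gene end. H3K27me3 was found at 8 of the 34 genes in the EPZ6438 list and at 17 in the DMSO list. The same held for 6.82% of protein-coding genes with EPZ6438 and 31.1% with DMSO, and for 5.96% of all genes of the table with EPZ6438 and 28.2% with DMSO. The ligands bore most of it. Among canonical ligands 6 of 14 had a peak with EPZ6438 and 10 with DMSO, and among the 5 non-canonical ligands 1 with EPZ6438 and 4 with DMSO. Of the 15 receptor genes 1 (Fzd3) had a peak with EPZ6438 and 3 (Fzd3, Lrp5 and Ror2) with DMSO.

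Of the 17 genes with H3K27me3 in the DMSO list, 9 had none in the EPZ6438 list (52.9%), against 79.3% of protein-coding genes with such a peak and 80.4% of all genes. The 9 were Wnt1, Wnt2, Wnt8a, Wnt10a, Wnt5a, Wnt5b, Wnt16, Lrp5 and Ror2. Wnt10a rose in RNA; Wnt5a, Wnt5b, Lrp5 and Ror2 did not pass and the other 4 had too few reads. The 8 genes with a peak in both lists were Wnt3, Wnt3a, Wnt7a, Wnt7b, Wnt8b, Wnt9b, Wnt11 and Fzd3. Wnt7b and Wnt11 rose, and the other 6 were not tested for lack of reads. At 7 of the 8 a peak of the EPZ6438 list overlapped one of the DMSO list, whereas at Fzd3 none did. In the DMSO list these 7 had 698 to 2335 bp under H3K27me3 (median 1989 bp), Fzd3 had 553 bp, and the 9 genes without a peak in the EPZ6438 list had 168 to 936 bp (median 583 bp). With 1 merged list per arm these lengths have no test. Away from the gene ends, 2 of the 9 still had H3K27me3 in the EPZ6438 list over the gene plus 2.5 kb on both sides. Wnt2 had 1525 bp in 6 peaks and Wnt5b 186 bp in 1 peak. That Wnt5b peak lay within 1 kb of a RefSeq start inside the gene, not of the start at the gene end.

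Covered length was shorter with EPZ6438 at 6 of the 8 genes with a peak in both lists. Within the windows the 34 genes had 7908 bp under H3K27me3 with EPZ6438 and 18334 bp with DMSO. Wnt7b had 386 bp in 1 peak with EPZ6438 and 2335 bp in 3 peaks with DMSO. Wnt8b had 246 bp with EPZ6438 and 1832 bp with DMSO, and Wnt11 363 bp with EPZ6438 and 698 bp with DMSO. Wnt7a and Wnt3a were the other 2. Wnt7a had 2438 bp with EPZ6438 and 1991 bp with DMSO, and Wnt3a 2187 bp with EPZ6438 and 1989 bp with DMSO. Over the whole gene plus 2.5 kb on both sides, Wnt7a had 14345 bp in 15 peaks with EPZ6438 and 12318 bp in 18 peaks with DMSO, and it was the 1 gene of 18 with a DMSO peak there that had more with EPZ6438, as did 1.46% of protein-coding genes. Wnt3a by that measure had 10298 bp with EPZ6438 and 17480 bp with DMSO, Wnt3 3686 bp with EPZ6438 and 5742 bp with DMSO, and Fzd3 4022 bp with EPZ6438 and 7874 bp with DMSO. Summed over the set, 36461 bp with EPZ6438 stood at 48.6% of the 75049 bp with DMSO, against 14.6% over 9128 protein-coding genes, a sum in which Wnt7a and Wnt3a weigh heavily.

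**Figure D5:**
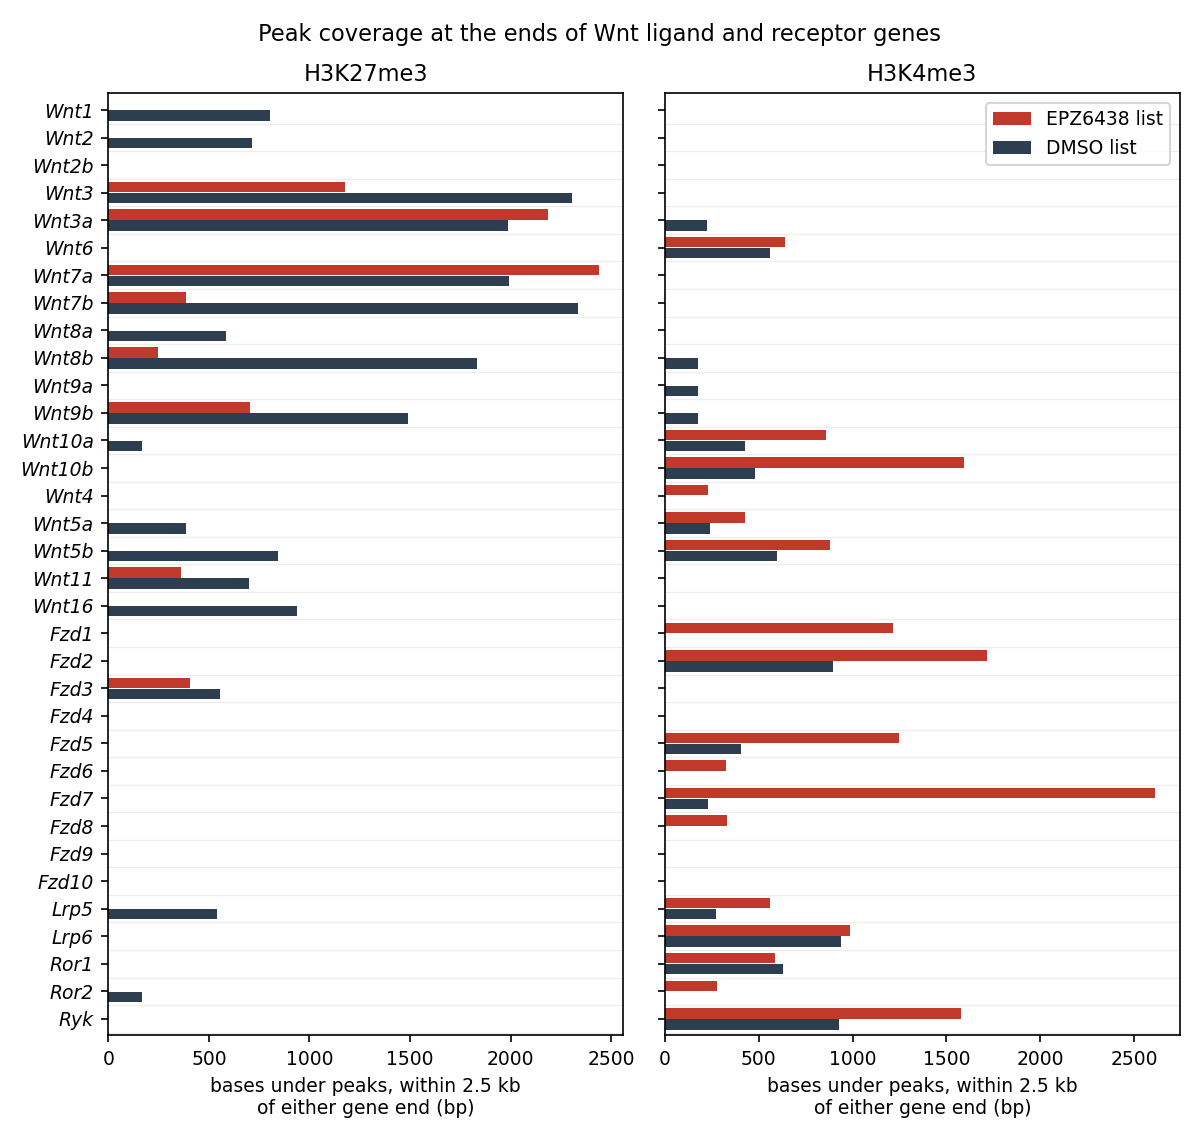
Bases under H3K27me3 peaks (left panel) and H3K4me3 peaks (right panel) within 2.5 kb of either end of each gene, with the EPZ6438 list above the DMSO list in each row. H3K27me3 lies mainly on ligand genes and is longer with DMSO except at Wnt3a and Wnt7a, whereas H3K4me3 lies on 11 of the 15 receptor genes with EPZ6438 and 7 with DMSO and, in both lists, on the ligands Wnt6, Wnt10a, Wnt10b, Wnt5a and Wnt5b.

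H3K4me3 was found at 17 of the 34 genes with EPZ6438 and at 16 with DMSO. It was at 43.6% of protein-coding genes with EPZ6438 and 39.5% with DMSO, and at 26.6% of all genes with EPZ6438 and 26.1% with DMSO. Of the receptors, 6 of 10 Frizzled genes bore it with EPZ6438 and 3 with DMSO, and Lrp5, Lrp6, Ror1 and Ryk in both. In 12 genes the mark was in both lists, and 11 of these had more covered bases with EPZ6438, the exception being Ror1 (588 bp with EPZ6438 and 631 bp with DMSO). The same held for 87.8% of the 7275 protein-coding genes with H3K4me3 in both lists, and peaks were wider in the EPZ6438 list as a whole (median 401 bp) than in the DMSO list (median 212 bp). Fzd7 had 2613 bp with EPZ6438 and 230 bp with DMSO, and Wnt10b 1596 bp with EPZ6438 and 482 bp with DMSO. Wnt10b RNA was higher with EPZ6438, whereas Fzd7 RNA was lower in each treated library than in any control, without passing. The mark was in the EPZ6438 list alone at Wnt4, Fzd1, Fzd6, Fzd8 and Ror2. It was in the DMSO list alone at Wnt3a, Wnt8b, Wnt9a and Wnt9b, each time as 1 peak of 177 to 224 bp, close to the median width in that list.

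Both marks together, the pattern known as bivalent at developmental genes, were at none of the 34 genes with EPZ6438 and at 7 with DMSO, against 0.631% of protein-coding genes with EPZ6438 and 10.4% with DMSO. In the DMSO lists the marks overlapped near the start of Wnt3a and Wnt8b, beyond the 3′ end of Wnt9b and at 1 end of Wnt10a, whose strand was not at hand, and lay 1298, 1446 and 2061 bp apart at Wnt5a, Wnt5b and Lrp5. In the EPZ6438 lists the 7 fell into 2 kinds. Wnt3a, Wnt8b and Wnt9b had H3K27me3 and no H3K4me3, and they had at most 4 reads in any library. Wnt10a, Wnt5a, Wnt5b and Lrp5 had H3K4me3 and no H3K27me3, and they were transcribed in both arms, Wnt10a rising. The count depended on peak width and window. With peaks of either mark held to at least 400 bp, none of the 34 genes had both marks in the DMSO lists. At that width Wnt10a and Wnt5b kept H3K4me3 (428 and 596 bp) and lost H3K27me3 (168 bp and at most 352 bp). With a 1 kb window 3 genes had both marks, with at least 200 bp of a peak in the window 4 had, and over whole genes 11 had.

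Set beside RNA, the 7 genes that rose had unlike chromatin in DMSO cells. Wnt6, Wnt10b, Wnt4 and Fzd5 had no H3K27me3 peak within 2.5 kb of either end in either list. Wnt6 had 1 H3K4me3 peak of 639 bp with EPZ6438 and 559 bp with DMSO, and these covered 299 bases of the printed promoter with EPZ6438 and all 300 with DMSO. The printed Wnt10b promoter lay under H3K4me3 for all 300 bases with EPZ6438 and for 127 with DMSO. Wnt10a had H3K27me3 in the DMSO list alone, in a single 168 bp peak inside an H3K4me3 peak. Wnt4 had 229 bp under H3K4me3 in the EPZ6438 list alone, and Fzd5 1250 bp with EPZ6438 and 407 bp with DMSO. Wnt7b and Wnt11 had H3K27me3 in both lists, shorter with EPZ6438, and no H3K4me3 peak in either list. Of the 7 genes that rose, 4 thus had no H3K27me3 peak in the windows, 1 had it in the DMSO list alone and 2 in both lists. Of the 9 genes with H3K27me3 in the DMSO list alone 5 were tested for RNA and 1, Wnt10a, rose. Of the 2094 protein-coding genes so marked and tested, 8.98% rose. Of the 8 genes with H3K27me3 in both lists, the 2 tested, Wnt7b and Wnt11, rose. Wnt11 met the read filter only through its EPZ6438 libraries. Of the 202 protein-coding genes with such a peak in both lists and tested, 24.3% rose. Among protein-coding genes tested for RNA, 12.8% of those with H3K27me3 alone in the DMSO lists rose, 8.42% of those with both marks, 2.31% of those with H3K4me3 alone and 3.72% of those with neither. Genes with few reads in every DMSO library met the read filter only through their EPZ6438 libraries, which favours a rise. All these shares are therefore a description of the genes that could be tested. How far the filter set them was not tested.

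Several of these genes lie next to each other in the genome with no protein-coding gene between, and neighbours differed. Wnt6 and Wnt10a on chromosome 1 were both transcribed and both rose. Wnt10b and Wnt1 lie 11706 bp apart on chromosome 15. Wnt10b rose and bore H3K4me3, while Wnt1 had at most 6 reads in any library and an H3K27me3 peak of 885 bp beyond its 3′ end in the DMSO list alone. On chromosome 11, Wnt9a (1.14 to 1.44 RPKM with EPZ6438 and 1.29 to 2.52 with DMSO, with no H3K27me3) lies 16175 bp from Wnt3a, and Wnt9b lies 24328 bp from Wnt3. Wnt3a, Wnt9b and Wnt3 had at most 1 read in any library and H3K27me3 in both lists.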

How the data were processed

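The members, the pathway and marker lists and the tests were chosen with earlier results of these data known. Of 18 samples, the 6 RNA samples and the 4 merged peak lists were used, and groups follow the labels. Expression was deposited by the authors in RPKM, with gene positions and lengths, per the file headers. The peak lists were deposited by the authors as other values, peak starts and ends without score, called on merged samples against the input of the same arm, per the file names. Per the submitters' processing notes, STAR 2.6.1c, Subread, MACS2, HOMER, Picard, DiffBind and mm10 were used, in roles not stated there. For the annotation release, strand setting, caller thresholds and way of merging, the answer is not given in the sources used here.

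Read counts were recovered by multiplying RPKM by length plus 1 base; 100% of nonzero values came out whole within 0.001. Genes holding 10 or more such reads in 3 or more libraries were fitted on log2(RPKM + 0.1) in R 4.3.3 by limma 3.58.1. The test was two-sided, with a trended empirical Bayes prior, no block and Benjamini-Hochberg adjustment over 14213 genes. The fit was run on simulated reads of a set spread. That run does not show how the fit performs at the spread of these libraries. Intervals are at 95%; those of read ratios, and the floor of 3 reads, cover counting error only, since reads carry no molecular identifiers. No replicate was a copy of another: the chi-square per gene between libraries of an arm was 6.53 to 62.4. Peaks and promoters were compared with Python 3.11.15, pandas 2.3.3, numpy 2.4.6 and scipy 1.17.1; figures used matplotlib 3.10.9. Each member had 1 row among the 43346 genes, and peak shares run over the 43309 genes outside the mitochondrial chromosome. Named genes were all 34 members, Ezh2, Eed and Suz12, and up to 3 passing genes per pathway list by adjusted p. Members that passed or averaged at least 1 RPKM in either arm have values per library, and those with both marks have values. Porcn, Wls, Ctnnb1, Tcf7l1 and Tcf7l2, and the marker genes given with values, were added after their values were seen. Alternatives were no read filter, pseudocounts of 0.01, 0.5 and 1 RPKM, median-of-ratios scaling, voom, a replicate block, each library left out, windows of 1 and 5 kb, whole genes, peaks of at least 400 bp and overlaps of at least 200 bp.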

Additional observations from a re-analysis of the deposited data

How the results depend on the processing

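Wnt6 and Wnt10b passed under all 13 RNA alternatives, with adjusted p of at most 0.0307 and 0.0393. Members called numbered 4 with no read filter, 2 to 6 with 1 library left out (6 without DMSO replicate 1 or 3, 3 without EPZ6438 replicate 2, 2 without any 1 of the others) and 7 under every other RNA alternative. Genes called in all numbered 628 with no read filter, 309 to 1003 with 1 library left out and 979 to 1168 otherwise, against 1001; the smaller counts come with more genes tested or fewer libraries. Of 283 alternative values for the 22 members tested, 261 kept direction and side of the threshold, 21 kept direction and lost the call (Wnt4, Wnt7b, Wnt10a, Wnt11 and Fzd5), and 1 changed sign, Fzd9, whose log2 change ran from -0.12 without DMSO replicate 1 to 0.66 without DMSO replicate 3. Without a read filter Wnt7b, Wnt4 and Wnt11 had adjusted p of 0.0853, 0.0979 and 0.0943. With 1 library left out Ezh2 ran from -0.038 to 0.14 and Suz12 from -0.19 to 0.088, so neither had a stable sign. Same-numbered libraries deviated together by correlations of 0.41, 0.08 and 0.06 and EPZ6438 replicate 2 went best with DMSO replicate 3, so the numbers were not taken as pairs. The replicate block gave 1051 genes and the same number of members, 7. Single genes were followed only for the members, the passing genes named by the pathway rule, and Ezh2, Eed and Suz12. Among them Lef1 alone lost its call with the block (limma adjusted p = 0.0517). Among peak counts, members with H3K4me3 in the DMSO list numbered 5 with peaks of at least 400 bp (16 as reported). Members with both marks in the DMSO lists numbered 3 at 1 kb, 11 over whole genes, 0 with peaks of at least 400 bp and 4 with at least 200 bp of overlap (7 as reported), and in the EPZ6438 lists 1 at 5 kb and 1 over whole genes (0 as reported). H3K27me3 counts stayed between 6 and 10 with EPZ6438 and 12 and 20 with DMSO. Read depth limits Wnt7b, Wnt11 and the 12 members not tested; peak depth is unknown.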

Other observations

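Other genes of the Wnt pathway outside the set were read from the same limma fit, chosen for their list and not by the naming rule. Their calls were not followed under the alternatives, so whether they hold with a library left out is not known. Among antagonists Kremen1, a DKK receptor, was at 30.0 ± 0.554 RPKM with EPZ6438 and 22.5 ± 2.46 RPKM with DMSO (SD, n = 3 each) and rose (adjusted p = 0.0481). Frzb, a secreted decoy of the Frizzled family, was at 0.469 ± 0.232 RPKM with EPZ6438 and 0.00406 ± 0.00703 RPKM with DMSO (SD, n = 3 each). It met the read filter only through its EPZ6438 libraries (15, 53 and 33 reads with EPZ6438 and 0, 0 and 1 with DMSO), so its call is given as a description. Sfrp2, another decoy, was at 60.8 ± 5.09 RPKM with EPZ6438 and 100.2 ± 14 RPKM with DMSO, Dkk2 at 3.88 ± 0.284 RPKM with EPZ6438 and 6.12 ± 0.598 RPKM with DMSO, and both fell (adjusted p = 0.0159 and 0.0228). Sost, the antagonist made by osteocytes, had no read in any library.

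Axin2, a feedback inhibitor induced by beta-catenin, was at 7.03 ± 0.842 RPKM with EPZ6438 and 4.44 ± 0.822 RPKM with DMSO (SD, n = 3 each) and did not pass (limma adjusted p = 0.0568). The corepressor genes Tle1 and Tle4 were at 2.48 ± 0.142 and 2.54 ± 0.246 RPKM with EPZ6438 and at 1.79 ± 0.0925 and 1.78 ± 0.0550 RPKM with DMSO, and neither passed (adjusted p = 0.0825 and 0.0756).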
